A study of Mus musculus with 16 samples.

Results

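The 6 genes described here, Casp8, Cflar, Cradd, Bcl2, Bok and Map3k5, encode regulators that decide whether a cell starts apoptosis. They were taken by gene symbol, and all 6 were found among the 5921 genes of the table. The study sequenced RNA of embryonic mouse ventricles taken at E11.5, with 16 libraries in 4 groups of 4. Atf4, the gene of a stress-responsive transcription factor, was deleted by Xmlc2-Cre, a transgene that the series describes as cardiomyocyte-specific, so other ventricular cells were not its target. One line carried an allele with exons 2 and 3 floxed (batch 1), the other an allele with exon 2 alone floxed (batch 2), and each conditional knockout (cKO) group had its own control group. The genotype label reads C57BL/6 WT on all 16 libraries, the cKO included, and whether the controls carried a floxed allele or the Cre is not stated. No treatment was given to any group. Line and batch coincide, so they cannot be told apart, and each cKO was compared with the controls of its own batch. Atf4 itself was not analysed here, so the labels alone say which libraries are knockouts.

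Apoptosis is entered by an extrinsic or by a mitochondrial route. In the extrinsic route, death receptors at the cell surface recruit caspase-8, and c-FLIP, its catalytically inactive relative, sets how far it is activated. In the mitochondrial route, members of the BCL2 family control the permeability of the outer mitochondrial membrane, and released cytochrome c joins APAF1 to form the apoptosome. Stress kinases such as MAP3K5 (ASK1) feed into both routes. In the mouse embryo, caspase-8 and c-FLIP are each needed for heart development.

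Values are TPM, a relative abundance that is corrected for transcript length, so levels can be compared between genes. In both lines cardiomyocyte markers were abundant. Of a list of 14, the 5 among the rows used (Tnnt2, Tnni1, Myl4, Myl7 and Pln) summed to between 12400 and 18400 TPM per library. None of the 5 was called. Of 8 neuronal markers, the 2 among the rows used, Map2 and Syt1, summed to between 0.295 and 2.11 TPM. The labels' extraction text nevertheless speaks of cortical neurons. Libraries of 1 group correlated with Pearson's r between 0.982 and 0.992 across the 2620 genes tested. Separate embryos are given as the replicates of each genotype.

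In the line with exons 2 and 3 floxed (exon 2-3 line), Bok and Map3k5 were lower in the cKO and the other 4 genes did not pass the test. Bok, a pro-apoptotic BCL2 family member, averaged 31.5 ± 2.70 TPM in controls and 20.9 ± 3.23 TPM in the cKO (SD, n = 4 each). Map3k5, a kinase upstream of JNK and p38, averaged 14.0 ± 0.692 TPM in controls and 11.4 ± 0.492 TPM in the cKO. Bcl2, the founding anti-apoptotic member of its family, had a higher mean in the cKO that missed the threshold after adjustment. In the line with exon 2 alone floxed (exon 2 line), none of the 6 genes passed.

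Counted over the set, 2 of 6 genes (33.3%) were called in the exon 2-3 line by limma at an adjusted p under 0.05, both of them lower. The 6 genes were chosen with earlier results of these data known, so this share is a description only. Over all 2620 genes tested, 6.72% were called in that line, and 2.56% were called as lower. The lower share depended on the scaling and on single libraries. It came from 109 genes called higher and 67 lower, which became 142 and 201 with each library centred on its median and 157 and 154 after quantile normalisation. Without control replicate 3 there were 85 higher and 105 lower, and with any 1 library left out the lower calls numbered between 22 and 105. The same 2 genes had no overlap between the cKO and control libraries, which held for 14.5% of all genes tested, 5.31% with the cKO lower. The median log2 difference of the 6 genes was 0.07, beside 0.03 over all genes tested, with 3 above 0 and 3 below. In the exon 2 line limma called 0 of 6, where 0.0763% of all genes were called. An unadjusted limma p under 0.05 was found there for 0 of 6 and for 84 of the 2620 genes tested. Groups overlapped for all 6 genes in that line, beside 1.83% of all genes that had no overlap. The median of the 6 was -0.02 there, against -0.01 over all genes. All 6 genes had passed the filter on low values.

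**Figure D1:**
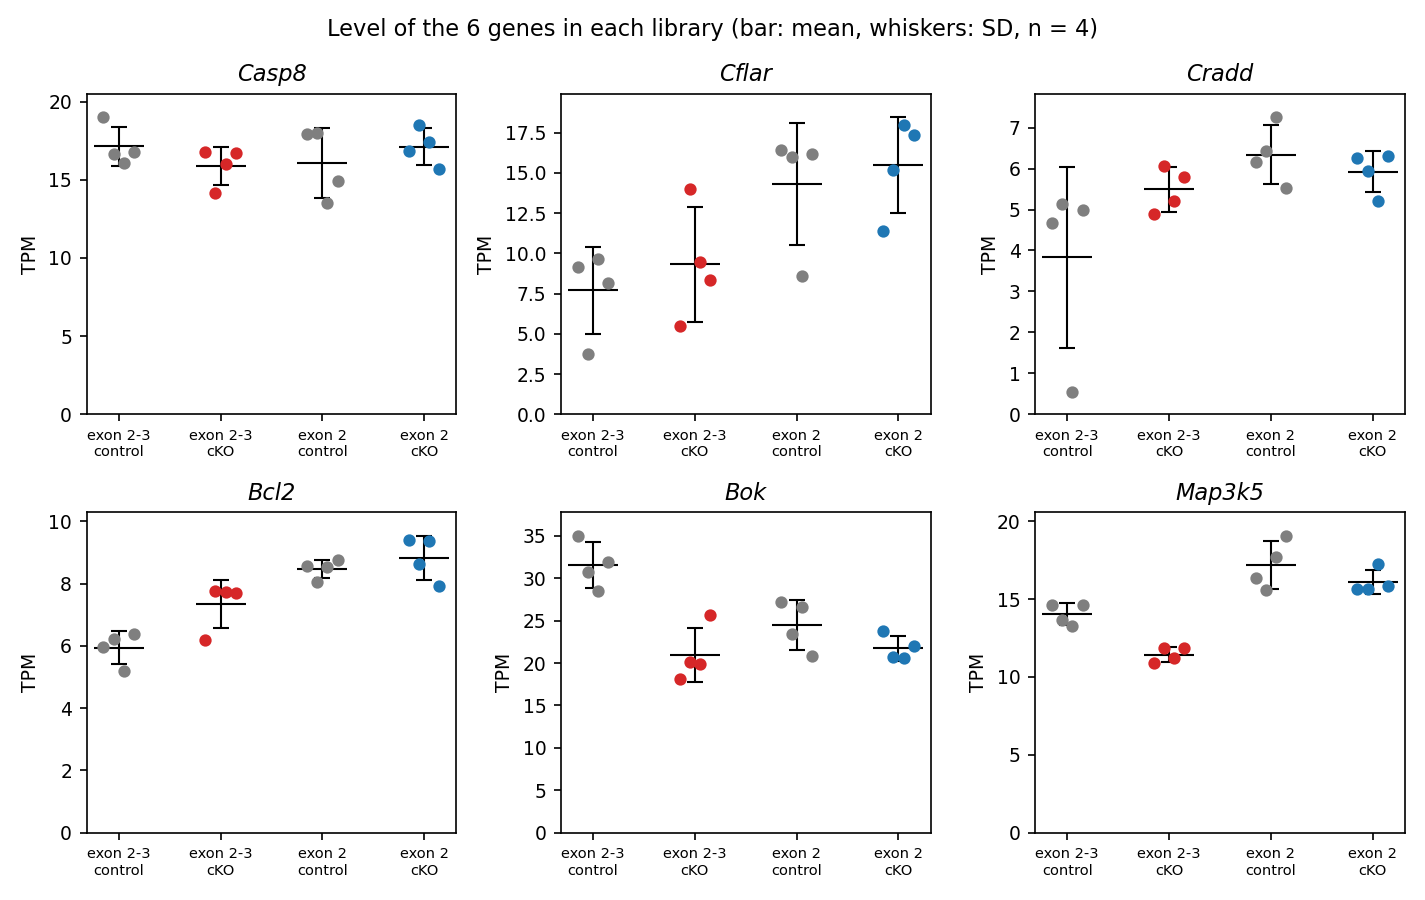
Level of each of the 6 genes in TPM (vertical axis, from 0) in the 4 groups. Points are libraries, bars are means and whiskers are SD (n = 4). In the exon 2-3 line the cKO libraries of Bok (18.2 to 25.6 TPM) and Map3k5 (10.9 to 11.9 TPM) all lie below their controls, while the 4 other genes overlap.

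The initiator of the extrinsic route and its inhibitor are near neighbours. Casp8 lies on chromosome 1 at 58795233 to 58847503 (GRCm38, plus strand), and Cflar, which encodes c-FLIP, at 58711311 to 58758884 on the same strand, leaving a gap of 36348 bases. No other row of the table overlaps either gene. Both were expressed at moderate level, but they differed in how much libraries of 1 group varied.

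Casp8 was the steadier of the pair. It measured 19.0, 16.7, 16.1 and 16.8 TPM in the exon 2-3 controls and 16.7, 14.1, 16.01 and 16.7 TPM in the cKO. Exon 2 controls had 17.9, 18.0, 13.5 and 14.9 TPM and the exon 2 cKO 16.9, 18.5, 17.4 and 15.7 TPM. The groups overlapped in both lines, and the 4 group means lay between 15.9 and 17.1 TPM. Its log2 difference between cKO and control was -0.10 (95% interval -0.28 to 0.07) in the exon 2-3 line, with a limma adjusted p of 0.495. It was 0.09 (-0.12 to 0.31) in the exon 2 line, with a limma adjusted p of 0.999. These intervals leave room for a modest change of Casp8 in either direction.

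Cflar was one of the most variable genes between libraries of a group. It measured 9.18, 3.78, 9.67 and 8.17 TPM in the exon 2-3 controls and 5.46, 14.0, 9.47 and 8.32 TPM in the cKO. Exon 2 controls had 16.4, 16.02, 8.62 and 16.2 TPM and the exon 2 cKO 11.4, 15.2, 18.0 and 17.4 TPM. Control replicate 2 was the low library of the first group, cKO replicate 2 the high library of the second, and control replicate 3 stood below the rest of the exon 2 controls. The residual SD of Cflar was 0.521 on the log2 scale in the exon 2-3 line, where 96.4% of genes tested had a smaller one and the median gene had 0.124. It was 0.357 in the exon 2 line, larger than that of 92.8% of genes. RefSeq lists 10 curated transcripts for Cflar and 3 for Casp8, and whether isoform assignment has a part in this spread was not tested.

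With that spread, no change of Cflar could be resolved. The log2 difference was 0.25 (95% interval -0.41 to 0.91, limma adjusted p 0.684) in the exon 2-3 line and 0.13 (-0.31 to 0.57, limma adjusted p 0.999) in the exon 2 line. Its sign rested on single libraries, since it was -0.02 without exon 2-3 control replicate 2 and -0.08 without exon 2 control replicate 3. The mean level was 7.70 ± 2.69 TPM in the exon 2-3 controls and 14.3 ± 3.80 TPM in the exon 2 controls (SD, n = 4 each). Those 2 control groups overlapped by 1 library, the low exon 2 control.

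The balance of Casp8 over Cflar also varied widely between libraries of a group in the exon 2-3 line. The ratio of their TPM within a library was 2.07, 4.41, 1.66 and 2.05 in the exon 2-3 controls and 3.07, 1.01, 1.69 and 2.01 in the cKO. It ran from 0.923 to 1.57 in the exon 2 controls and from 0.905 to 1.48 in the cKO. Within each line the cKO and control ratios overlapped, and no test was made on them.

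Cradd (RAIDD) encodes the adaptor that brings caspase-2 to the PIDDosome, a platform that responds to DNA damage and extra centrosomes. It lies on chromosome 10 at 95174739 to 95324138 (minus strand), with no overlapping row, and it was the lowest of the 6 genes in all 4 groups. It measured 4.67, 5.15, 0.540 and 4.99 TPM in the exon 2-3 controls and 4.89, 6.07, 5.20 and 5.802 TPM in the cKO. It measured 6.17, 6.42, 7.25 and 5.53 TPM in the exon 2 controls and 6.27, 5.93, 5.21 and 6.31 TPM in the cKO. Control replicate 3 of the exon 2-3 line stood far below every other library, and the groups overlapped in both lines.

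That library set the size of the difference of Cradd in the exon 2-3 line. With it, the log2 difference was 0.61 (95% interval -0.26 to 1.48, limma adjusted p 0.405). Without it, the difference was 0.13, with a limma adjusted p of 0.483. For the exon 2 line the difference was -0.08 (-0.30 to 0.14, limma adjusted p 0.999). Of the 2620 genes tested, 12 were listed in this library more than 3 times lower than in the lowest other control, Cradd among them, and the count was between 0 and 17 over the 16 libraries. The gene most like Cradd across the 16 libraries was Erlec1, an endoplasmic reticulum lectin gene on chromosome 11 (Pearson's r 0.959, values centred within each line). Erlec1 measured 4.07 TPM in the same library and between 24.4 and 29.6 TPM in the other 3 controls. Both genes were thus low in that library, and r was not computed without it.

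Bcl2 and Bok belong to 1 protein family with opposite textbook roles, BCL2 holding the mitochondrial outer membrane closed and BOK able to permeabilise it. Bcl2 lies on chromosome 1 at 106538176 to 106714290 (minus strand) and Bok at 93685575 to 93695770 (plus strand). The 250 bases upstream of the start in RefSeq's promoter table are shown because these 2 relatives had differences of opposite sign in the exon 2-3 line, that of Bok called and that of Bcl2 not. Sequences are from RefSeq (GRCm38.p6), written 5′ to 3′ on the gene's strand, and capitals mark GGGCGG or its reverse complement, the core of a GC box.
Bok, chr1:93685325-93685574, plus strand: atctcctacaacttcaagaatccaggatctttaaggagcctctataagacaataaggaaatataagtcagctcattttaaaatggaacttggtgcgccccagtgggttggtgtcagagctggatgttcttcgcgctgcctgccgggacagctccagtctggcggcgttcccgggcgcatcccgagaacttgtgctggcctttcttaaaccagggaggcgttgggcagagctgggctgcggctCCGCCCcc
Bcl2, chr1:106714291-106714540, minus strand: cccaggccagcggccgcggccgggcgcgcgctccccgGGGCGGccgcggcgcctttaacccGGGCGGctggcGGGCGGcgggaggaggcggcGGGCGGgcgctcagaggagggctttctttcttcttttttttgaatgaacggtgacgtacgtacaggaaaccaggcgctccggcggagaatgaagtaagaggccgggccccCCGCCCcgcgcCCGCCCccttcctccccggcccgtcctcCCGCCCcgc

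The windows differ in composition and in place. Those of Bok and Bcl2 end just before the first base of the gene, while those of Casp8 and Map3k5 lie inside the printed gene span and those of Cflar and Cradd reach into it. In the Map3k5 window 54 bases are in exons of the gene itself, and in the Cradd window 221 bases are in exons of Gm48882 on the other strand. That of Bok held 55.2% G and C and 1 GGGCGG match, and that of Bcl2 held 74.8% G and C and 7 matches, where the median over 32851 RefSeq windows of the same length was 52.4%. A match on either strand was present in 32.7% of all windows, with 2 in the Map3k5 window and none in those of Casp8, Cflar and Cradd. Neither TGATGNAA, the core of the element bound by ATF4 with C/EBP partners (3.45% of windows), nor TGACGTCA, the cyclic AMP response element (1.55%), was found in any of the 6 windows on either strand. The p53 half-site, in 7.13% of windows, was not found there either. These letters are a description of these windows only.

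Bok had the larger of the 2 called changes. It measured 35.0, 30.7, 28.5 and 31.9 TPM in the exon 2-3 controls and 18.2, 20.1, 19.9 and 25.6 TPM in the cKO. Every cKO library lay below every control. The mean fell by 33.6%, and the log2 difference was -0.57 (SE 0.10, 95% interval -0.81 to -0.34, limma adjusted p 0.0130). Removing any 1 of the 8 libraries kept the call (largest adjusted p 0.0478), but it was lost when genes of low level were tested too (adjusted p 0.0583). In bulk tissue, fewer cells of a type that expresses a gene and less RNA per cell cannot be told apart.

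In the exon 2 line Bok measured 27.2, 23.5, 26.6 and 20.8 TPM in controls and 23.8, 20.7, 20.6 and 22.01 TPM in the cKO. The groups overlapped, and the log2 difference was -0.16 (95% interval -0.36 to 0.04, limma adjusted p 0.999). The difference between the lines' effects was -0.42 (SE 0.14, 95% interval -0.72 to -0.11), with an unadjusted p of 0.0104 and a limma adjusted p of 0.155. It therefore did not pass in the deposited values, although it did with each library centred on its median (adjusted p 0.0472). The nearest genes on either side, Stk25 and Thap4, had log2 differences of 0.08 and -0.09 in the exon 2-3 line, and neither was called.

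Bcl2 had a difference of the opposite sign, which was not called. It measured 5.97, 6.23, 5.20 and 6.38 TPM in the exon 2-3 controls and 6.20, 7.75, 7.73 and 7.68 TPM in the cKO. Replicate 1 of the cKO lay within the control range, and the other 3 cKO libraries lay above it. The log2 difference was 0.26 (SE 0.10, 95% interval 0.05 to 0.48), with an unadjusted p of 0.0214 and a limma adjusted p of 0.145. In that line 552 of the 2620 genes tested had an unadjusted limma p under 0.05. Without cKO replicate 1 the difference of Bcl2 was 0.33, with a limma adjusted p of 0.0793.

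Exon 2 libraries had higher Bcl2, measuring 8.56, 8.07, 8.52 and 8.76 TPM in controls and 9.41, 8.62, 9.37 and 7.91 TPM in the cKO. These groups overlapped, and the difference was 0.05 (95% interval -0.13 to 0.23, limma adjusted p 0.999). Every library of the exon 2 line lay above every library of the exon 2-3 line. Line and batch coincide, and the share of all genes that separate the lines in this way was not computed. The rows of Mir3473f and Gm37053 overlap Bcl2 on its own strand, at mean levels of 0.00512 and 0.0172 TPM. Of the genes on either side, Kdsr had a log2 difference of 0.21 in the exon 2-3 line (limma adjusted p 0.189), and Gm41928 was too low to be tested.

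The ratio of Bok to Bcl2 within a library brings both together. It was 5.86, 4.93, 5.49 and 4.999 in the exon 2-3 controls and 2.93, 2.59, 2.58 and 3.33 in the cKO, with no overlap. The means were 5.32 ± 0.439 and 2.86 ± 0.356 (SD, n = 4 each). The ratio of the exon 2 line ran from 2.38 to 3.18 in controls and from 2.201 to 2.78 in the cKO, and the groups overlapped. The exon 2 controls thus lay in the range of the exon 2-3 cKO or just below it. The ratio was formed after the levels of both genes had been seen, and no test was made on it.

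**Figure D2:**
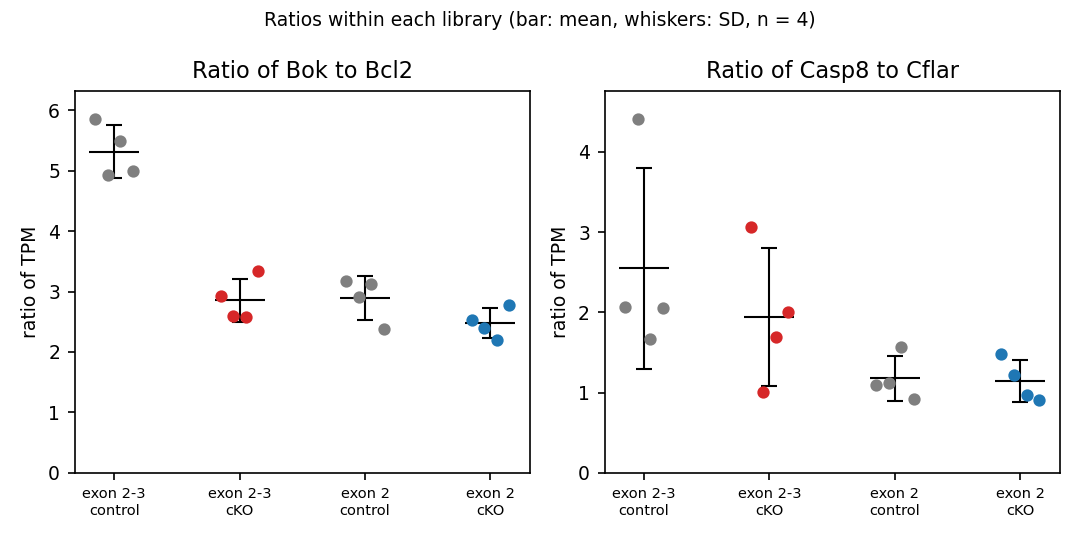
Ratios of TPM within each library, Bok to Bcl2 on the left and Casp8 to Cflar on the right (vertical axes from 0). Points are libraries, bars are means and whiskers are SD (n = 4). The Bok to Bcl2 ratio of the exon 2-3 controls (4.93 to 5.86) lies above all other groups, while the Casp8 to Cflar ratios overlap within each line.

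Map3k5 encodes ASK1, a kinase that is held inactive by thioredoxin and that activates the MAP2K4 and MAP2K3 branches towards JNK and p38. It lies on chromosome 10 at 19934101 to 20142750 (plus strand), with no overlapping row. It measured 14.6, 13.6, 13.3 and 14.6 TPM in the exon 2-3 controls and 10.9, 11.8, 11.2 and 11.9 TPM in the cKO. Every cKO library lay below every control, and the residual SD of 0.0621 was smaller than that of most genes (5.95% had a smaller one). The mean fell by 18.5%, and the log2 difference was -0.27 (SE 0.07, 95% interval -0.42 to -0.13, limma adjusted p 0.0384).

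This call was close to the threshold. It was lost in 7 of the 8 fits that left out 1 library, with adjusted p-values up to 0.118 (without control replicate 1), and held only without control replicate 3 (0.0304). The log2 difference itself stayed between -0.30 and -0.25 in those fits. Of the 2 genes beside it, the nearer, Map7, a microtubule-associated protein gene, had a log2 difference of -1.17 in the exon 2-3 line and was not called (limma adjusted p 0.210). The other, Pex7, a receptor for peroxisomal import, fell by 0.25 on the log2 scale (limma adjusted p 0.0396).

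Map3k5 of the exon 2 line measured 16.4, 15.6, 17.7 and 19.1 TPM in controls and 15.6, 15.7, 17.2 and 15.8 TPM in the cKO. The groups overlapped, and the log2 difference was -0.09 (95% interval -0.26 to 0.08, limma adjusted p 0.999). The difference between the lines' effects was -0.19 (-0.39 to 0.02, limma adjusted p 0.390). Every library of the exon 2 line lay above every library of the exon 2-3 line. As for Bcl2, line and batch coincide here, and the share of all genes with such a separation was not computed.

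**Figure D3:**
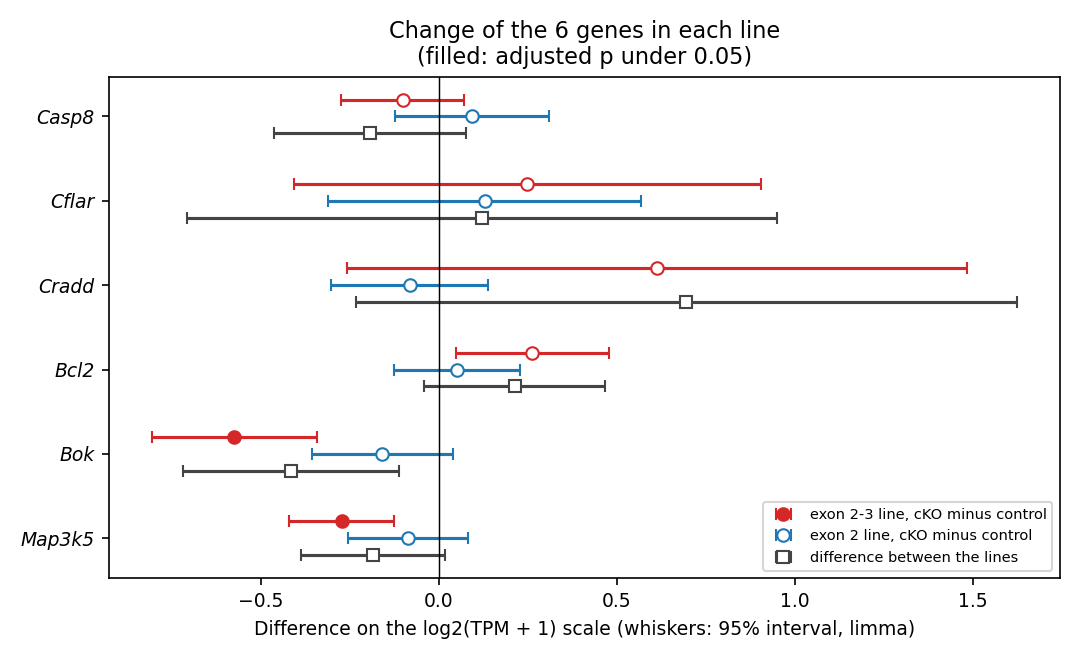
Differences of the 6 genes on the log2(TPM + 1) scale (horizontal axis) with 95% intervals from limma, cKO minus control in each line and the difference between the lines. Filled symbols passed an adjusted p of 0.05, which Bok (-0.57) and Map3k5 (-0.27) did in the exon 2-3 line, and the intervals of Cradd and Cflar are the widest.

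For the difference between the lines, limma called 0 of the 6 genes, beside 2.37% of all genes tested. An unadjusted limma p under 0.05 was found for 1 of the 6 (Bok) and for 392 of the 2620 genes tested. An effect called in 1 line and not in the other was thus not shown to differ for Bok or Map3k5. The remaining interaction terms were -0.19 for Casp8, 0.12 for Cflar, 0.69 for Cradd and 0.21 for Bcl2, with limma adjusted p-values between 0.446 and 0.943.

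The order of levels was alike at its ends in all 4 groups. Bok was the highest and Cradd the lowest. The order in the exon 2-3 controls was Bok, Casp8, Map3k5, Cflar, Bcl2 and Cradd, and only Cflar and Bcl2 overlapped as neighbours. The cKO of that line had the same order, with overlap between Map3k5 and Cflar and between Cflar and Bcl2. Casp8, Map3k5 and Cflar overlapped as neighbours in both groups of the exon 2 line. Against all genes tested, Bok stood at the 70.1 percentile of mean level in the exon 2-3 controls and at 58.5 in the cKO, and Cradd at 20.9 and 25.8.

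Epicardial or mesenchymal markers moved in the exon 2-3 line as well. From a list of 10, 5 were among the rows used (Tcf21, Dcn, Lum, Col1a1 and Col3a1). Of these 5, 4 were called as higher, beside 4.16% of all genes tested. Lum was not called, with a log2 difference of 0.51 (limma adjusted p 0.127). The summed level of the 5 ran from 256 to 291 TPM in controls and from 395 to 432 TPM in the cKO. Of the 5, 0 were called in the exon 2 line, with sums of 385 to 548 TPM in controls and 377 to 485 TPM in the cKO. None of the 2 endothelial (from a list of 12), 4 erythroid (of 9) and 4 leukocyte (of 10) markers tested was called in either line. Erythroid sums ran from 1510 to 11300 TPM in the exon 2-3 cKO and from 2990 to 4550 TPM in its controls. The part of the mesenchymal rise in the falls of Bok and Map3k5 was not tested.

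The genes whose levels followed the members most closely were found by Pearson's r over the 16 libraries, after centring within each line. The r values are descriptions of libraries that share groups and scaling. For Bok they were Ccdc138 (0.912) and Cdk1 (0.895), the mitotic kinase gene, and for Map3k5 Ddx59 (0.864) and Nek2 (0.861), a centrosomal kinase gene. Cdk1 measured 66.2 to 69.1 TPM in the exon 2-3 controls and 48.9 to 54.1 TPM in the cKO. It measured 48.6 to 55.15 TPM in the exon 2 controls and 49.7 to 54.1 TPM in the exon 2 cKO. The exon 2-3 controls thus lay above every library of the other groups. For Bcl2 they were Arhgap44 (0.905) and Map4k4 (0.899), and for Casp8 Kcnmb1 (0.847) and Ppa1 (0.840). Cradd followed Acbd3 (0.913) next after Erlec1, while Cflar had only weaker matches, Mir6912 (0.753) and Ccl7 (0.720). The r values of Cradd include its low control library of the exon 2-3 line and were not computed without it.

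Other genes of the death pathways were taken from a list of 104, of which 19 were in the table and 13 were tested. Limma called 2 of the 13 as higher in the exon 2-3 line and 0 as lower, where 4.16% of all genes were called as higher. The median log2 difference of the 13 was 0.07, beside 0.03 over all genes tested. Limma called 0 of 13 in the exon 2 line, and the median was -0.04 against -0.01. An unadjusted limma p under 0.05 was found there for 2 of the 13 and for 84 of the 2620 genes tested.

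Apaf1, the scaffold of the apoptosome, was the clearest of these. It lies on chromosome 10 and measured 13.3, 13.8, 11.6 and 13.6 TPM in the exon 2-3 controls and 19.1, 19.8, 19.4 and 19.1 TPM in the cKO. Every cKO library lay above every control. The log2 difference was 0.53 (SE 0.07, limma adjusted p 0.00213), and it was called in each of the 17 alternative fits of that line. Apaf1 of the exon 2 line ran from 13.1 to 18.3 TPM in controls and from 15.2 to 18.3 TPM in the cKO, with a difference of 0.03 (limma adjusted p 0.999). The difference between the lines was 0.51 (SE 0.14, limma adjusted p 0.0490), and this call was lost in 16 of 25 alternative fits, 13 of which left out 1 library. Apaf1 overlaps Ikbip and Gm25390 on the other strand. The sources do not say if reads were assigned by strand, so its value is uncertain.

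Tmbim1, of a family of membrane proteins that restrain cell death, also rose in the exon 2-3 line. It ran from 27.4 to 34.0 TPM in controls and from 35.6 to 42.5 TPM in the cKO, without overlap. The log2 difference was 0.31 (SE 0.08, limma adjusted p 0.0434), and the call was lost in 7 of the 8 fits that left out 1 library, with adjusted p-values up to 0.107. It overlaps Pnkd on the other strand, so its value is uncertain too.

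The remaining genes named by the rule did not pass in either line. Among the partners of MAP3K5, Map2k4 had a log2 difference of 0.10 in the exon 2-3 line and Ywhae, a 14-3-3 protein gene, of -0.09, with limma adjusted p-values of 0.437 and 0.424. Parp1, a nuclear enzyme cleaved by caspases, had -0.11 (limma adjusted p 0.394), a difference that passed after centring on the library median (0.0231). Cul3, whose ubiquitin ligase acts on caspase-8, had -0.01, and Traf5, an adaptor of tumour necrosis factor receptors, had 0.24. Tmbim4 had 0.11, with a limma adjusted p of 0.395. The death ligand gene Fasl averaged 0.0331 TPM and was not tested.

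**Figure D4:**
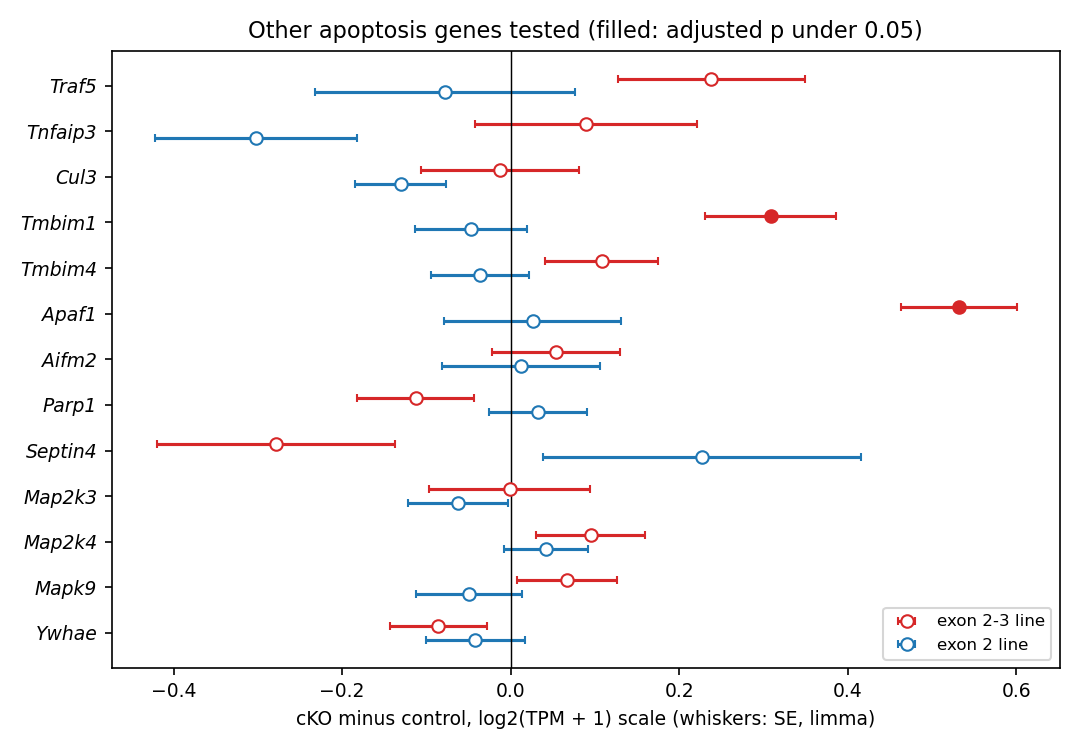
Log2 differences between cKO and control (horizontal axis) for the 13 other apoptosis genes tested, in the exon 2-3 and the exon 2 line, with limma standard errors as whiskers. Filled symbols passed an adjusted p of 0.05, as Apaf1 (0.53) and Tmbim1 (0.31) did in the exon 2-3 line, and no gene is filled in the exon 2 line.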

How the data were processed

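RNA-seq was done on 16 libraries of ventricle. The authors deposited 1 table of TPM values, and per the submitters' processing notes the tools included Trim Galore 0.6.7, HISAT2 2.2.1 and StringTie 2.2.1 on GRCm38, with no roles given. The TPM unit keeps no depth, so no counting interval is given. The labels describe both stranded mRNA libraries and ribosomal RNA depletion. Rows on chromosomes 1, 10 and part of 11 were used (15.2% to 17.1% of each library's TPM). The coordinates of 5919 of 5921 rows equalled RefSeq's on GRCm38.p6, and 1 line that ended early was left out.

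Tests used log2(TPM + 1), a scale on which changes of low genes look smaller, and the 2620 genes whose mean TPM reached 1. Each line was fitted on its 8 libraries with limma 3.58.1 (intensity trend) in R 4.3.3, and the difference between lines was a contrast of group means fitted to all 16. Tests were two-sided, with Benjamini-Hochberg adjustment over all genes tested and a threshold of 0.05. The procedure was tested on simulated data with independent noise for each gene and library. Such data hold no shared library effects, so they cannot show how the calls depend on the scaling. The members and lists were chosen with earlier results of these data known. The named genes were the 6 members, the called genes and the 2 highest of each part of a wider apoptosis list, the rows next to or overlapping a member, and the 2 genes most like each member. Alternatives covered the pseudocount, the filter, the scaling, the trend, the replicate block, one fit over all libraries, array weights and leaving out each library. Python 3.11.15 with pandas 2.3.3 made the tables and matplotlib 3.10.9 the figures.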

Additional observations from a re-analysis of the deposited data

Results flagged for a closer look

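Each of the 14 named apoptosis genes was checked in each of the 4 groups for a library far from the other 3, by the gap to its nearest neighbour over the group's range against Dixon's critical value. Of these 56 checks, 5 were past it, and chance gives about 1 in 20. The lowest Cradd value of the exon 2-3 controls was 0.54 TPM in replicate 3 (gap 0.896 of the range). The lowest Cflar value of the exon 2 controls was 8.62 TPM in replicate 3 (0.946). The lowest Bcl2 value of the exon 2-3 cKO was 6.2 TPM in replicate 1 (0.955). The highest Map3k5 value of the exon 2 cKO was 17.2 TPM in replicate 3 (0.874), and the highest Parp1 value of the exon 2 controls was 125 TPM in replicate 1 (0.831).

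The knockout effect on Apaf1 differed between the lines by the interaction term, 0.51 on the log2 scale (limma adjusted p 0.0490). The call was lost in 16 of 25 alternative fits, over which the adjusted p ran from 0.00535 to 0.110. These included the fits without a filter on low values (0.104), without the intensity trend (0.0553) and with the replicate block (0.0625), and 13 of the 16 that left out 1 library.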

How the results depend on the processing

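Over 42 results for single genes (14 genes, each line and the difference between lines), 766 of 823 alternative fits kept direction and side of the threshold, 34 lost a call, 8 gained one and 15 turned sign. Many could not change, since several settings keep the estimate and exon 2 adjusted p-values were at least 0.92. In the exon 2-3 line the call of Map3k5 was lost in 8 of 17 fits, that of Tmbim1 in 9, of Bok in 1 and of Apaf1 in 0. The Apaf1 interaction lost its call in 16 of 25. Bok and Map3k5 stayed negative in the exon 2-3 line under each of 17 alternatives (-0.67 to -0.51 and -0.33 to -0.25). For most of these the sign was fixed in advance. The filter, the trend, the block and the one fit keep the estimate. With groups that do not overlap, neither the pseudocount nor leaving out 1 library can turn it. Only the scaling could have turned the sign. Genes called in the exon 2-3 line numbered 176, and 95 without a filter on low values, 311 after quantile normalisation, 343 after median centring, 272 after rescaling without hemoglobin genes, and 70 to 190 with 1 library left out. The exon 2 line gave 2 genes, 4 in one fit over all libraries and 2 to 4 with 1 library left out. The difference between lines gave 62, and 133, 127 and 136 after quantile normalisation, median centring and array weights, and 36 to 84 with 1 library left out. The wider apoptosis list kept 1 of 2 calls without the filter, 1 without the intensity trend and 1 to 2 with 1 library left out.

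With 1 library left out, sign changes gave ranges of -0.018 to 0.45 for Cflar and -0.11 to 0.047 for Cul3 (exon 2-3 line). The exon 2 line gave -0.082 to 0.26 for Cflar, -0.069 to 0.080 for Apaf1, -0.16 to 0.030 for Traf5 and -0.068 to 0.0048 for Tmbim4. For the difference between lines they were -0.15 to 0.33 for Cflar and -0.0050 to 0.088 for Map2k4, which was -0.00010 after median centring. The cause was not tested.

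Same-numbered libraries were not treated as pairs, since the correlations of their deviations from group means ran from -0.0287 to 0.211 (exon 2-3 line) and from 0.0639 to 0.200 (exon 2 line). Each of the 4 cKO libraries correlated best with its own number in the exon 2 line, a hint from the data only, and 1 of 4 did in the exon 2-3 line. With the replicate number as a block, the exon 2-3 line gave 149 genes, the exon 2 line 2 and the difference 68. Under the block Map3k5 had an adjusted p of 0.0663 for exons 2 and 3, and the Apaf1 interaction had 0.0625.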
